A study of Mus musculus with 12 samples.

Results

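The Egr and Nr4a immediate-early transcription factors were followed by 7 genes of the array: Egr1, Egr2, Egr3, Nr4a1, Nr4a2, Nr4a3 and Nab2. They were found by their symbols in the deposited probe table, and all 7 were among its 30789 named symbols, on 10 probes. Mouse cells called PtC+ or PtC-, by whether they bind phosphatidylcholine, a membrane lipid bound by the antibodies of many B-1 cells, were profiled on 12 Illumina bead arrays. TCL1-192 cells of peritoneum and of spleen had 2 arrays for each PtC class. Wild type cells and young TCL1 cells of the peritoneum had 1 array for each class. All mice shared a mixed C3H and C57BL/6 background, and the labels call every sample a leukemia, the wild type ones included. TCL1 is an oncogene used to model chronic lymphocytic leukemia in mice. The labels give neither the promoter behind the TCL1 genotype nor the meaning of 192, and no ages beyond the word young, no donor mice and no word on pooling.

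Egr1, Egr2 and Egr3 are zinc finger proteins that bind GC-rich DNA. Nr4a1, Nr4a2 and Nr4a3 are orphan nuclear receptors. In lymphocytes both families are transcribed within minutes of antigen receptor signalling, through ERK and calcium, and need no new protein to be made first. Egr1 and Egr2 RNA is induced through serum response factor and its partners at CArG boxes, and Nr4a RNA largely through CREB and MEF2 factors. Nab2 is a corepressor that binds Egr proteins and is itself induced by them. In mouse B cells, reporters driven by Nr4a1 are widely used to read antigen receptor signalling.

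Promoter sequence is shown for Egr2 and the Nr4a genes, with the short motifs of these factors marked. Egr2 was among the genes that differed between tissues, as Egr1, Egr3 and Nab2 were, and the Nr4a genes were not detected. RefSeq promoter windows (mouse build GRCm38.p6, 250 bases before to 50 after the start) were used for 5 of the 7 genes, those 4 and Nab2, but not for Egr1 and Egr3, so the Egr and Nr4a families are not compared by them. The windows below are those of the Nr4a genes and, for Egr2, 1 of 5 windows, chosen because it holds both of the motifs found in any of them. Capitals mark matches, on either strand, to the CArG box, to TGACG (the core of a CREB site), to TGCGTCA, and to the Egr sites GCGGGGGCG and GCGTGGGCG. TGCGTCA holds TGACG on its other strand, so a TGCGTCA match is also a TGACG match. The Egr2 window is chr10:67537619-67537918 (plus strand), that of Nr4a1 is chr15:101266596-101266895 (plus strand), that of Nr4a2 is chr2:57123954-57124253 (minus strand) and that of Nr4a3 is chr4:48045055-48045354 (plus strand).
Egr2: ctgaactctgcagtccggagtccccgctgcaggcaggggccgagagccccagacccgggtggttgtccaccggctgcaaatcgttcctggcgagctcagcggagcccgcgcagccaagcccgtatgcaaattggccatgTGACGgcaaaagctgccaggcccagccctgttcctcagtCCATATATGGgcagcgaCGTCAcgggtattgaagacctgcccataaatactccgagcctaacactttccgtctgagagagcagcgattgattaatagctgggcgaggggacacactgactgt
Nr4a1: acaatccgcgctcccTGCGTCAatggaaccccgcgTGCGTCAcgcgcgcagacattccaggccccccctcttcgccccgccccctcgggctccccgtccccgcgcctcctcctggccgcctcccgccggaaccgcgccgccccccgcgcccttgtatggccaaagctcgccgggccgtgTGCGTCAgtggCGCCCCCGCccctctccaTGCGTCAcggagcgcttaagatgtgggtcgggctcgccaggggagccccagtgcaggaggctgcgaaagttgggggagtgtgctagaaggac
Nr4a2: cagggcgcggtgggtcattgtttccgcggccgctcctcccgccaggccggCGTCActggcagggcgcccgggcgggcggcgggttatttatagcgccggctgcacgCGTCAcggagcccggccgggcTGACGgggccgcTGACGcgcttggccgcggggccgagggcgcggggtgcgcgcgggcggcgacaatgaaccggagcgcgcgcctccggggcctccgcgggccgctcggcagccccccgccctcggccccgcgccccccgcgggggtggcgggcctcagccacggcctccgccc
Nr4a3: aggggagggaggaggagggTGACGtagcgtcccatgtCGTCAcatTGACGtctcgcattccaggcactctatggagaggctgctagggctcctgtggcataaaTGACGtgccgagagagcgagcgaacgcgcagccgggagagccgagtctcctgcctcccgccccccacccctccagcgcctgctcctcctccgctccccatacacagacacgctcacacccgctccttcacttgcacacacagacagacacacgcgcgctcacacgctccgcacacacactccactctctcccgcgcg
The Egr2 window held 1 CArG box, starting at position -72 from the start site, and 2 TGACG matches. Of the 5 Egr2 windows 4 held a CArG box, 3 held TGACG and 1 held neither. A CArG box was in 1.63% of all 32851 windows of this length, a share that cannot be set against a window chosen for its motifs. None of the 3 Nr4a windows matched the CArG box, and each held 4 TGACG matches, a number reached in 0.231% of windows, while 20.8% held at least 1. In Nr4a1 all 4 were also TGCGTCA, a motif found in 2.12% of windows, and 1 GCGGGGGCG match lay at position -60 (2.91% of windows). GCGTGGGCG was in 0.612% of windows and in none of those of these genes. The Nab2 window, chr10:127666654-127666953 (minus strand), matched none of these motifs.

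Values are background-corrected, quantile-normalized signals on a log2 scale. A probe was called detected on an array when its deposited detection p-value was under 0.05. Between 13825 and 15192 of 45281 probes were detected on 11 arrays. The second PtC- peritoneal TCL1-192 array stood apart, with 10711 probes detected and a median raw signal of 219.2 against 99.4 to 121.4 on the others. Genes detected on at least 2 arrays were tested in 1 limma model over all arrays, 13190 genes in all. Egr1, Egr2, Egr3 and Nab2 passed this filter. Of the B cell markers with a probe, 7 (among them Cd22 and Ms4a1) were detected on all 12 arrays, and Pax5 was detected on 0.

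Egr1 was detected on all 12 arrays and covered the widest range of the 4 genes. On the TCL1-192 spleen arrays it read 13.85 and 13.92 in PtC+ cells and 13.70 and 13.68 in PtC- cells. On the TCL1-192 peritoneal arrays it read 7.73 and 7.36 in PtC+ cells and 7.93 and 7.05 in PtC- cells. The lone arrays lay between them, at 10.33 (PtC+) and 9.54 (PtC-) for wild type and 10.25 and 8.66 for young TCL1. In raw signal the 4 spleen arrays ran from 13907 to 14776 and the wild type pair read 1524.9 and 813.26. In the order of the 8 group means, only 2 steps between neighbours exceeded the spread. One was from wild type PtC+ up to spleen PtC- (3.35, 95% interval 2.48 to 4.22). The other was from TCL1-192 peritoneal PtC+ up to young PtC- (1.12, 0.24 to 1.99). Each involves a lone array, whose spread was taken from the paired groups. Here and for the next 3 genes, groups were ordered by these same values, and intervals were not adjusted for the number of steps.

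Egr2 followed the same order of tissues at detectable levels only outside the TCL1-192 peritoneum. On spleen arrays it read 9.70 and 10.08 in PtC+ cells and 9.66 and 10.14 in PtC- cells. On the lone arrays it read 6.98 and 6.89 for wild type and 6.65 and 6.60 for young TCL1, PtC+ first. On the 4 TCL1-192 peritoneal arrays it was not detected, at 5.05 to 5.63. The steps of its order beyond the spread were the one below the lowest spleen group (2.91, interval 2.09 to 3.73) and the one above the highest TCL1-192 peritoneal group (1.23, 0.41 to 2.05).

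Egr3 differed from these in that its wild type and young PtC+ arrays reached the range of the spleen arrays. It read 10.32 and 9.02 in wild type and 9.77 and 8.14 in young TCL1, PtC+ first. The spleen arrays read 9.33 and 10.39 in PtC+ cells and 9.31 and 10.14 in PtC- cells, so they overlapped the lone PtC+ arrays. The TCL1-192 peritoneal arrays read 6.99 and 5.86 in PtC+ cells and 7.16 and 4.93 in PtC- cells, the last of these not detected and on the array of raised background. The SD of its replicate pairs was 0.59 to 1.58, against 0.0137 to 0.626 for Egr1, and no step between neighbours in its order exceeded the spread. A second Egr3 probe was detected on 2 arrays only and read 4.90 to 5.68 over the 12.

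Nab2 stayed close to the detection limit. It read 6.64 in young TCL1 PtC+ cells and 6.28 in wild type PtC+ cells, and 5.69 in the PtC- cells of both. Spleen arrays read 6.27 and 6.06 (PtC+) and 6.33 and 6.01 (PtC-). The 4 TCL1-192 peritoneal arrays were not detected, at 4.78 to 5.71, and no step in the order of its groups exceeded the spread.

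**Figure D1:**
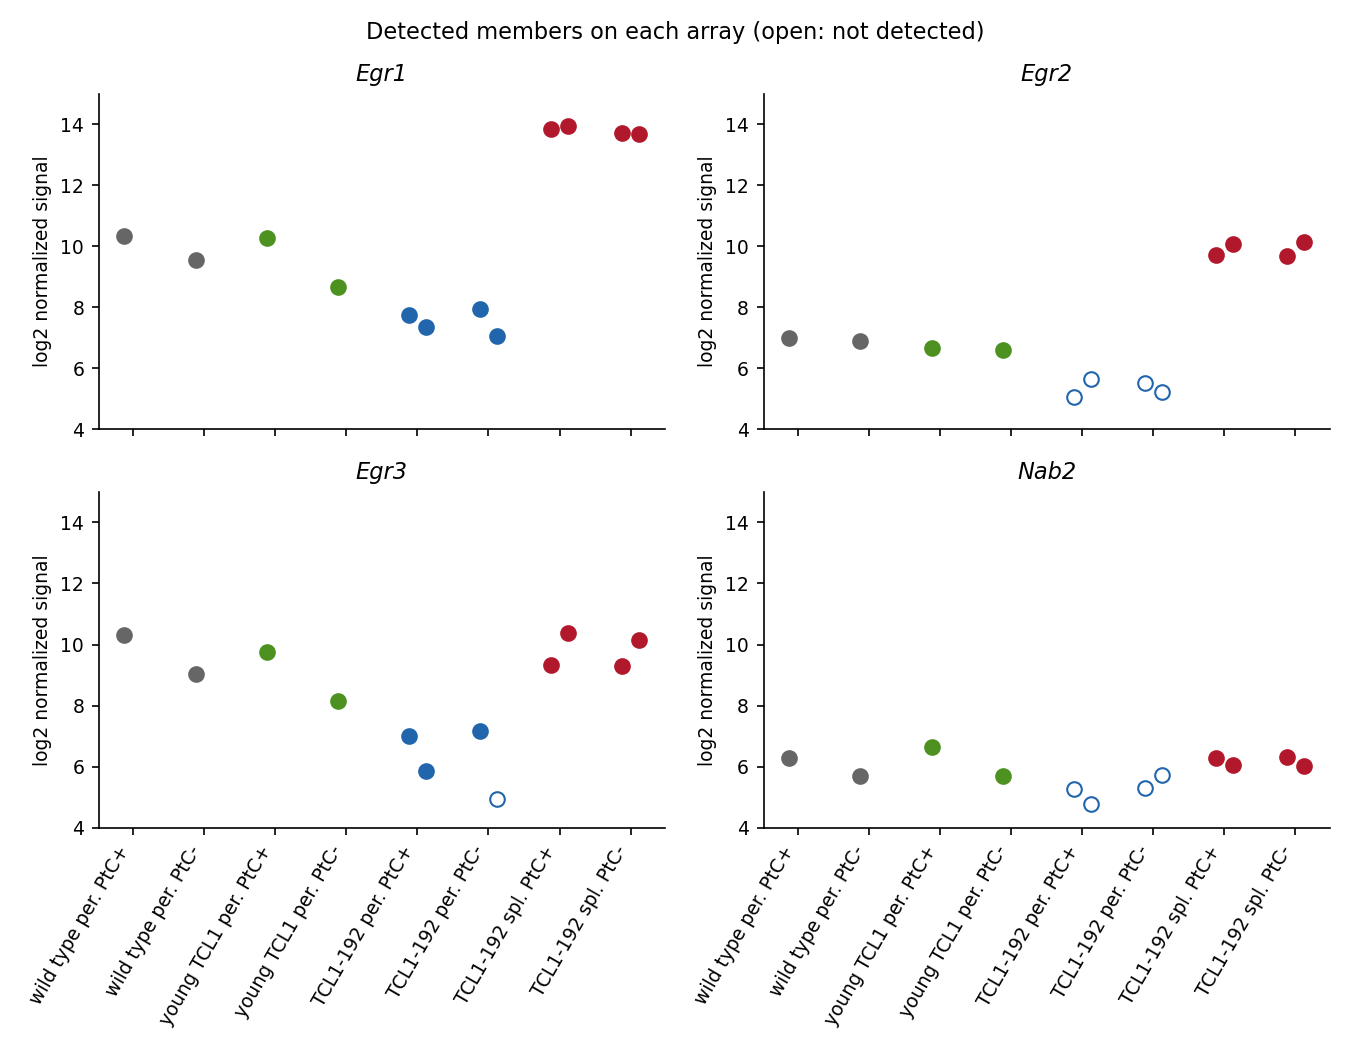
Log2 normalized signal (vertical axis) of Egr1, Egr2, Egr3 and Nab2 on each of 12 arrays, by group (per., peritoneum; spl., spleen); filled points were detected and open points were not. Egr1 and Egr2 are highest on the 4 spleen arrays, whereas Egr3 on the wild type PtC+ array (10.32) lies within the range of the spleen arrays (9.31 to 10.39).

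None of the 5 Nr4a probes was detected on any array. Nr4a1 had 1 probe, Nr4a2 had 1 and Nr4a3 had 3, and the lowest of their 60 detection p-values was 0.0769. Their log2 values were 4.55 to 5.59. None reached the lowest detected value of its own array (5.49 to 6.46), which follows from their not being detected. Nr4a1, the member most used as a reporter of antigen receptor signalling, read 4.76 and 4.67 on the spleen PtC+ arrays and 4.66 and 4.65 on the spleen PtC- arrays, within the 4.55 to 4.77 of all 12 arrays. Its detection p-values ran from 0.614 to 0.998, and its raw signal stood at percentile 0.36 to 25.7 of its array. With no filter on detection, limma gave spleen minus peritoneum differences of -0.03 ± 0.07 (SE) for Nr4a1 (adjusted p = 0.88), -0.06 ± 0.12 for Nr4a2 (0.87) and 0 ± 0.15 for Nr4a3 (1). A signal under the detection limit bounds what the probe reported and does not show that the RNA was absent, and whether these probes can report their genes was not tested.

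**Figure D2:**
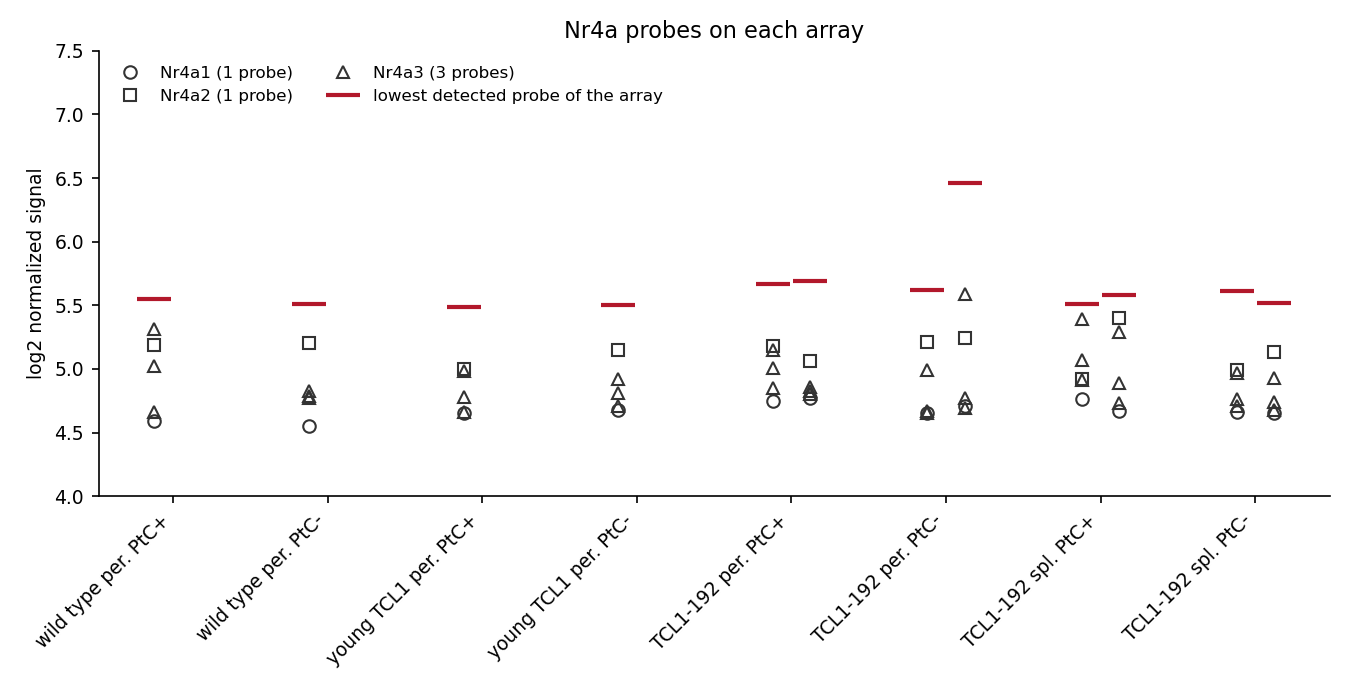
Log2 normalized signal (vertical axis) of the 5 Nr4a probes on each array by group, with the lowest value of any detected probe of that array as a red bar. All 60 values lie under the bar of their array, in spleen as in peritoneum, as values that are not detected must.

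Spleen and peritoneal TCL1-192 cells were compared first, since the study set the cells of these tissues against each other for signatures of autoantigen responsiveness. All 4 tested genes were higher in spleen (limma, adjusted p under 0.05), in a comparison where 26.7% of all genes were called, 15.5% higher and 11.1% lower. Egr1 was 77.1-fold higher (log2 difference 6.27 ± 0.21, SE, 4 arrays against 4, limma adjusted p = 2.08e-05). Egr2 was at least 16.4-fold higher (4.54 ± 0.20, adjusted p = 3.79e-05), with peritoneum set at the detection limit of each array. Egr3 was 11.8-fold higher (3.56 ± 0.54, adjusted p = 0.00436). Nab2 was at least 1.24-fold higher (0.90 ± 0.18, adjusted p = 0.0114). The spleen and peritoneal arrays did not overlap for the Egr genes, but the share of all genes with no overlap was not counted. For Nab2 overlap cannot be judged. It was not detected in TCL1-192 peritoneum, and the lowest detected value of the array of raised background (6.46) was above its spleen values (6.01 to 6.33). The sizes depended on the processing while the calls did not. In the authors' normalized values the log2 differences were 5.64 for Egr1, 2.99 for Egr2 and 2.51 for Egr3. Egr2 was 3.52 higher after normexp with median centring and 3.71 with offset 50, so its at least 16.4-fold holds for the main processing alone, and Egr3 was 1.71 higher with the mean of its probes.

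The difference was present in both PtC classes. In PtC+ cells alone (2 arrays against 2) the differences were 6.34 for Egr1, 4.55 for Egr2, 3.44 for Egr3 and 1.14 for Nab2, all called by limma, where 12.3% of all genes were called higher. In PtC- cells they were 6.20, 4.52 and 3.68 for the Egr genes, all called, and 0.66 for Nab2, which was not (adjusted p = 0.173), where 3.97% of all genes were called higher. Without the array of raised background Egr1 was 6.05 higher in spleen (limma adjusted p = 7.8e-08), Egr2 4.46 and Nab2 1, and Egr3 stayed past the test (adjusted p = 0.00031). The call of Nab2 was lost without the first spleen array of either PtC class (0.85 and 0.82, adjusted p = 0.054 for each).

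In the normalized values, Egr1 and Egr3 did not change by equal amounts on the TCL1-192 arrays. On the TCL1-192 arrays where both were detected, Egr1 rose by 2.99 more than Egr3 between the tissues (exact two-sided permutation over 4 spleen and 3 peritoneal arrays, p = 0.029, the smallest this design allows), a set of arrays chosen after the values were seen. With the array on which Egr3 was not detected, the difference was 2.71 (exact permutation, p = 0.029 and 0.044 after adjustment over 3 pairs of Egr genes). Egr3 was also near the detection limit on the second PtC+ peritoneal array, at 5.86 beside a lowest detected value of 5.69. The size of its rise, and so of the gap to Egr1, is therefore uncertain. Both tests count each array as independent, and the labels do not say whether same-numbered arrays are. Egr1 minus Egr3 followed the replicate number, at 4.52 and 4.39 on spleen arrays numbered 1 and 3.53 on both numbered 2. In TCL1-192 peritoneum it read 0.74 and 0.77 for number 1, and 1.5 and 2.12 for number 2. If same-numbered arrays are not independent, the p-values are too small. The rise of Egr2 is a lower bound, since it was not detected in TCL1-192 peritoneum, and its pairs are not read. Because probes differ in brightness, only changes of the Egr1 to Egr3 ratio between arrays carry meaning. The log2 difference of Egr1 minus Egr3 was 0.02 to 0.53 on the 4 lone arrays, 0.74 to 2.12 on the 4 TCL1-192 peritoneal arrays and 3.53 to 4.52 on the 4 spleen arrays. Over the 8 peritoneal arrays, of 3 genotypes and both PtC classes, Egr1 and Egr3 rose and fell together (Pearson r = 0.981, as a description). Their difference was not constant there, at 0.02 to 2.12, with Egr3 not detected on the array of 2.12. The spleen arrays lay off the line of the peritoneal ones. On the wild type PtC+ array Egr3 read 10.32 beside Egr1 at 10.33, and on the second spleen PtC+ array Egr3 read 10.39 beside Egr1 at 13.92.

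**Figure D3:**
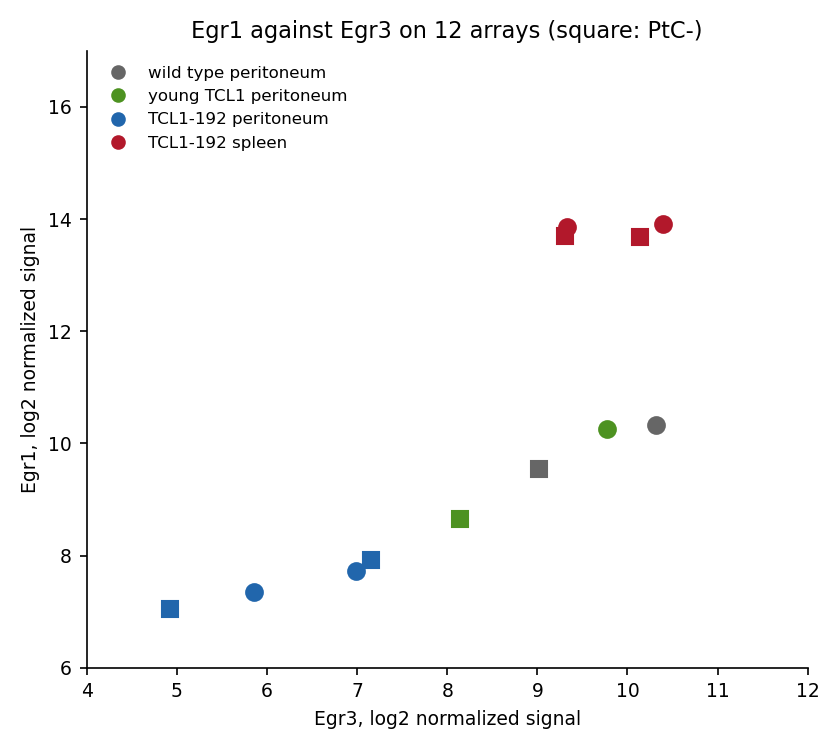
Log2 normalized signal of Egr1 (vertical axis) against Egr3 (horizontal axis), 1 point for each of 12 arrays, coloured by genotype and tissue, squares for PtC-. The 8 peritoneal points lie along 1 line, and the 4 spleen points lie above it, with Egr1 minus Egr3 at 3.53 to 4.52 against 0.02 to 2.12.

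The genes most like Egr1 over the 12 arrays were other immediate-early genes and a scaffold protein. By Pearson correlation of log2 values they were Fosb (0.989), an AP-1 subunit, Jun (0.984), its partner, Atf3 (0.977), a stress-induced factor of the ATF family, Myd116, now named Ppp1r15a (0.977), which directs a phosphatase to eIF2 alpha, and Akap12 (0.97), a scaffold for protein kinase A. The tissue difference of the spleen arrays weighs heavily in these values, which are a description of arrays that share genotypes and tissues. Within the 8 peritoneal arrays the same 5 gave 0.859 to 0.925, against 0.898 for Egr2 and 0.812 for Nab2.

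The list of other immediate-early genes held 45 names, of which 35 were tested. In spleen 26 of the 35 were higher than in peritoneum and 0 lower (15.5% and 11.1% of all genes). Their median log2 difference was 1.67 against -0.02 over all genes. Fosb was at least 62.1-fold higher (6.59 ± 0.13, limma adjusted p = 2.6e-06), Atf3 40.1-fold (5.33 ± 0.19), Fos, the founding AP-1 gene, 28.8-fold (4.85 ± 0.15) and Ppp1r15a 26-fold (4.70 ± 0.30), all called. Dusp1 and Dusp2, phosphatases that switch off MAP kinases, were 18.6-fold and 20-fold higher, whereas Dusp6, a phosphatase induced by ERK signalling, read -0.34 ± 0.15 (adjusted p = 0.14). Myc (0.52), Fosl2 (0.33), Plk3 (0.24), Mcl1 (0.17), Nfkbia (-0.05), Tnf (-0.05), Ier3 (-0.42) and Trib1 (-0.50) did not pass the test either. Without the array of raised background 26 were higher and 1 lower.

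**Figure D4:**
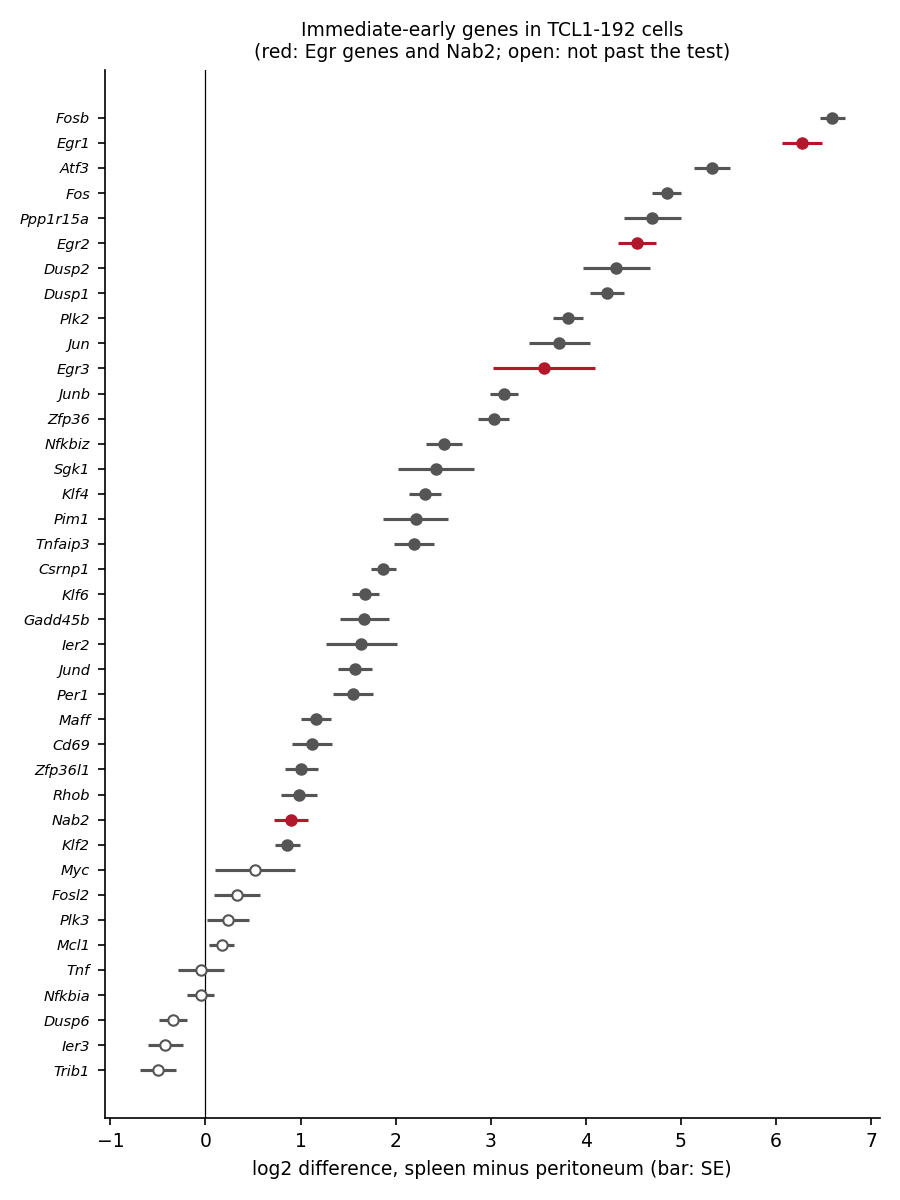
Log2 difference between TCL1-192 spleen and peritoneum (horizontal axis, bar: SE from limma) for 35 other immediate-early genes and, in red, the 3 Egr genes and Nab2; filled points passed the test. Fosb (6.59, not detected in TCL1-192 peritoneum) and Egr1 (6.27) have the largest measured differences, and no filled point lies under 0.

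Of the factors that act upstream, 7 of 24 tested were higher in spleen and 1 lower, at a median of 0.35. For this and the next lists, 15.5% of all genes were called higher in spleen and 11.1% lower. Nfatc1, a calcium-dependent factor, was 1.16 ± 0.25 higher and Srf, serum response factor, 0.94 ± 0.17, and Elk3, a ternary complex factor, was 1.27 lower (-1.27 ± 0.15), each called by limma. Of 3 tested partners of Egr and Nr4a proteins, Nab1, the other Nab corepressor, was higher (1.29 ± 0.33, adjusted p = 0.027) and Ddx20 lower (-0.51 ± 0.14, adjusted p = 0.032). Of 9 tested genes known to respond to Egr factors in lymphocytes, Cdkn1a, a cell cycle inhibitor (1.98 ± 0.29), Id3, an inhibitor of E proteins (0.72 ± 0.16), and Cd44, an adhesion receptor (0.67 ± 0.16), were higher, and Ndrg1 was lower (-0.79 ± 0.24, adjusted p = 0.049). Of 4 tested genes known to be restrained by Nr4a1 in mouse B cells, the chemokine gene Ccl4 was called higher, by at least 1.01-fold (0.75 ± 0.19), being detected on the 4 spleen arrays alone.

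Markers of several other cell types differed between the tissues as well, where 15.5% of all genes were called higher in spleen and 11.1% lower. Of 15 tested macrophage markers 12 were lower in spleen, with a summed linear signal of 1439 to 1597 on spleen arrays and 13310 to 22120 on TCL1-192 peritoneal arrays. On the spleen arrays 11 of the 15 were detected on none, among them Lyz2, Csf1r, Cd14, Marco and the 3 C1q genes, while Cd68 and Mrc1 were detected on all 4 and Emr1 and Saa3 on 2. Erythroid markers summed to 1053 to 1718 in spleen and 19480 to 33320 in TCL1-192 peritoneum, T cell markers to 599.7 to 683 and 847.6 to 1065, neutrophil markers to 76.61 to 365.4 and 50.07 to 58.39, and NK cell markers to 314.9 to 622.3 and 145.2 to 194.3. Mast cell sums were 60.55 to 102.6 and 59.53 to 107.1 with 0 of 5 markers called, B cell sums 77200 to 85820 and 59340 to 76600, and no dendritic cell marker passed the detection filter. Of 11 genes of heat shock and dissociation stress 1 was higher, Hspa1a (at least 1.24-fold), and 1 lower, Hspe1 (-1.12 ± 0.30), at a median of -0.14, with sums of 37220 to 41250 in spleen and 41930 to 44780 in peritoneum. In bulk samples such as these, fewer cells of a type and less RNA per cell cannot be told apart. The part of the macrophage, erythroid, T cell, neutrophil, NK cell and stress genes in the Egr differences was not tested.

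PtC+ and PtC- TCL1-192 cells, the cells that do and do not bind this autoantigen, were then compared over both tissues. None of the 4 genes passed, and 0% of all genes did (limma, with 1129 of 13190 genes at an unadjusted p under 0.05). Egr1 differed by 0.13 (95% interval -0.37 to 0.63), Egr2 by -0.02 (-0.50 to 0.45), Egr3 by 0.26 (-1.02 to 1.54) and Nab2 by -0.24 (-0.66 to 0.18), PtC+ minus PtC-. The interval of Egr3 was the widest of the 4, and a p that misses the threshold does not show that the classes are alike. Without the first PtC- peritoneal array, the array of raised background stood alone in its group. Egr1 then differed by 0.35 and Egr3 by 0.82. Without the array of raised background they differed by -0.09 and -0.30. The PtC difference in spleen minus that in peritoneum, with 0% of genes called and 1520 at an unadjusted p under 0.05, was 0.14 for Egr1, 0.03 for Egr2, -0.25 for Egr3 and 0.48 for Nab2, none of them called. In spleen alone the Egr1 values of the classes did not overlap (13.85 and 13.92 against 13.70 and 13.68), but the difference of 0.20 ± 0.30 was under the error of the model.

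In the peritoneum, TCL1-192 cells were set against wild type cells. All 4 genes were called lower in TCL1-192 (27.4% of all genes were called, 11.8% higher and 15.6% lower). Egr1 was 5.35-fold lower (-2.42 ± 0.26, 4 arrays against 2, limma adjusted p = 0.000816) and Egr3 10.8-fold lower (-3.43 ± 0.67, adjusted p = 0.00964). Egr2 was at least 2.1-fold lower (-1.57 ± 0.25, adjusted p = 0.0042). Nab2 was at least 1.09-fold lower (-0.72 ± 0.22, adjusted p = 0.0496), its arrays overlapped those of wild type, and the call was lost without the second PtC+ peritoneal array (adjusted p = 0.12) or any 1 of the 4 spleen arrays (0.081 to 0.083). It was also lost after normexp with median centring (0.19), in the authors' values (0.1), with no filter (0.077), an intensity trend (0.085), offset 50 (0.068) or the replicate block (0.053). In the authors' values Egr2 was 0.72 lower (-0.72) and Egr3 2.40 lower (-2.40), Egr3 read -1.63 with the mean of its probes, and all 3 of these values were called. The at least 2.1-fold of Egr2 thus does not hold in the authors' values. The Egr genes did not overlap between the genotypes, and here too the share of all genes with no overlap was not counted. These peritoneal TCL1-192 arrays are the same as in the comparison with spleen, so both comparisons share them.

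Young TCL1 cells lay nearer to wild type. None of the 4 genes passed between them (1.52% of genes did, 0.607% higher and 0.917% lower): Egr1 differed by -0.48 (95% interval -1.19 to 0.23), Egr2 by -0.31 (-0.98 to 0.36), Egr3 by -0.72 (-2.53 to 1.10) and Nab2 by 0.18 (-0.41 to 0.78). Against young TCL1 cells all 4 were called lower in TCL1-192 (19.7% of genes were called, 7.94% higher and 11.7% lower). Egr1 was 3.84-fold lower (-1.94 ± 0.26, limma adjusted p = 0.00303), Egr3 6.57-fold lower (-2.72 ± 0.67, adjusted p = 0.0307), Egr2 at least 1.7-fold lower (-1.27 ± 0.25, adjusted p = 0.0134) and Nab2 at least 1.24-fold lower (-0.90 ± 0.22, adjusted p = 0.0302). The Egr3 call was lost without the first or the second PtC+ peritoneal array (adjusted p = 0.051 and 0.094) and without any 1 of the 4 spleen arrays (0.054 to 0.059), and that of Nab2 without the second PtC+ peritoneal array (0.075) or any 1 spleen array (0.058 to 0.059). The Egr3 call was also lost with no filter (0.074), and that of Nab2 after normexp (0.1) and in the authors' values (0.051). In the authors' values Egr2 read -0.56 and Egr3 -1.80, and with the mean of its probes Egr3 read -1.42, all called. The at least 1.7-fold of Egr2 thus does not hold in the authors' values. The Nab2 arrays overlapped those of young TCL1. Lone arrays have no replicate of their own and were assumed to vary like the paired ones.

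**Figure D5:**
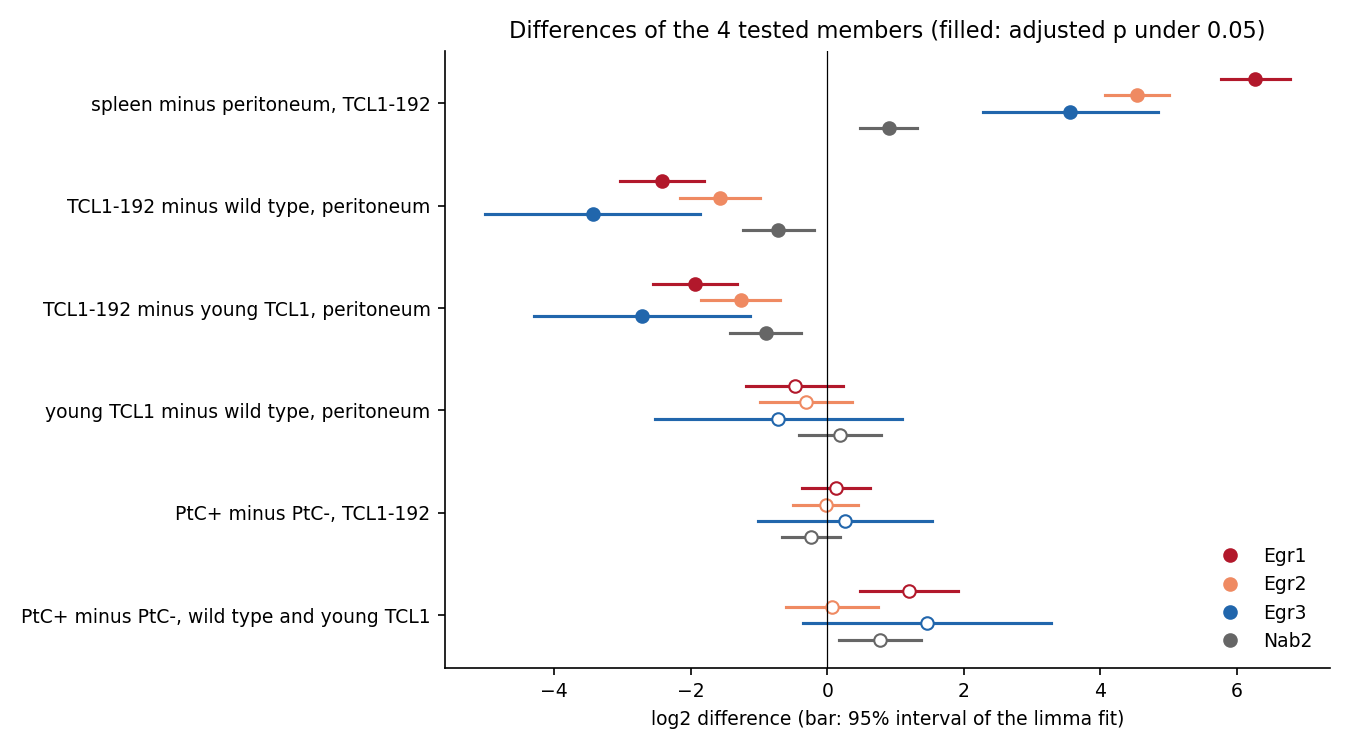
Log2 difference (horizontal axis) of Egr1, Egr2, Egr3 and Nab2 in 6 comparisons, with 95% intervals from limma; filled points have an adjusted p under 0.05. All 4 are filled and above 0 in spleen against peritoneum, filled and under 0 in TCL1-192 against wild type and against young TCL1, and open in the other comparisons.

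Other immediate-early genes were lower in TCL1-192 peritoneum as well, with exceptions that the Egr genes did not share. Against wild type 18 of 35 were lower and 3 higher (median -1.01, all genes 0.03), and against young TCL1 14 were lower and 3 higher (median -0.50, all genes 0.01). The shares over all genes were 15.6% lower and 11.8% higher against wild type, and 11.7% and 7.94% against young TCL1. Tnfaip3, which restrains NF-kB, was at least 4.24-fold lower than in wild type and at least 3.43-fold lower than in young TCL1. Fosl2 was at least 4.42-fold and Atf3 5.97-fold lower than in wild type, and Sgk1, a kinase, 6.29-fold lower than in young TCL1. Dusp6 went the other way, 5.95-fold higher than in wild type (2.57 ± 0.18, limma adjusted p = 1e-04) and 15.8-fold higher than in young TCL1 (3.98 ± 0.18, adjusted p = 1.7e-05). Plk2 and Plk3, polo-like kinases, were the other 2 that were higher in both comparisons. Between young TCL1 and wild type Fosb (-1.25 ± 0.18) and Dusp6 (-1.41 ± 0.21) were lower.

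Of the upstream factors 7 of 24 were lower and 2 higher in TCL1-192 than in wild type, Nfatc3 (-1.91 ± 0.27) and Nfatc1 (-1.43 ± 0.30) among the lower ones. Against young TCL1 5 were lower and 0 higher. For this and the next lists, 15.6% of all genes were lower and 11.8% higher against wild type, and 11.7% and 7.94% against young TCL1. Of the genes known to respond to Egr factors only Ndrg1 passed among the 9 tested, 11.5-fold higher than in wild type and 4.8-fold higher than in young TCL1. Cd86, a costimulatory ligand among the 4 genes known to be restrained by Nr4a1, was 2.36-fold and 1.91-fold higher, while no partner of the Egr and Nr4a proteins was called. Of the stress genes Hspb1 was higher than in wild type (4.44 ± 0.34) and Hspa1a at least 2.13-fold lower, and against young TCL1 the same 2 were called (3.79 ± 0.34, and at least 1.08-fold lower). Erythroid markers summed to 79.43 to 223.4 in wild type and 401.5 to 2482 in young TCL1, against 19480 to 33320 in TCL1-192 peritoneum. Mast cell markers summed to 1786 to 2704 and 1446 to 1669 against 59.53 to 107.1, and macrophage markers to 20570 to 27090 and 20130 to 20210 against 13310 to 22120. Of the 15 macrophage markers 7 were lower and 3 higher than in wild type, and 1 lower and 2 higher than in young TCL1. Of 5 T cell markers 2 were lower than in wild type, Cd3g (-3.79 ± 0.37) and Cd3e (at least 2.58-fold). Cd8b1 was higher than in wild type (2.16 ± 0.27). Against young TCL1 1 was lower, Cd3g (-2.63 ± 0.37), and 1 higher, Lck (0.75 ± 0.21). Of 3 NK cell markers 2 were lower than in young TCL1 and 0 than in wild type. Of 7 B cell markers Ms4a1 was lower than in both (-0.95 ± 0.25 and -0.92 ± 0.25), and their sums did not overlap, at 59340 to 76600 in TCL1-192, 84410 to 87160 in wild type and 86340 to 86880 in young TCL1. The part of these cells in the Egr differences was not tested.

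In wild type and young TCL1 cells, the PtC+ array read higher than the PtC- array for Egr1, Egr3 and Nab2. This comparison was added after the values were seen. Egr1 was 0.80 higher in the wild type pair and 1.59 higher in the young pair, Egr3 1.29 and 1.63, and Nab2 0.59 and 0.95, while Egr2 differed by 0.09 and 0.04. Over both pairs none passed (1.12% of genes did, 0.281% higher and 0.842% lower): Egr1 gave 1.19 ± 0.30 (limma adjusted p = 0.217), Egr3 1.46 ± 0.77 (0.716), Nab2 0.77 ± 0.25 (0.41) and Egr2 0.07 ± 0.28 (0.992). For Egr1 the call depended on the processing, with an adjusted p of 0.041 after normexp and median centring, 0.021 in the authors' normalized values, 0.044 with an intensity trend and 0.014 without either PtC- TCL1-192 peritoneal array. The difference from the PtC contrast of TCL1-192 peritoneal cells was tested itself and passed for none (0.69% of genes did, 0.129% higher and 0.561% lower), at 1.14 ± 0.43 for Egr1 (adjusted p = 0.242), 0.10 for Egr2, 1.08 for Egr3 and 1.25 ± 0.36 for Nab2 (0.182). It passed for Egr1 without the second PtC- peritoneal array (1.58, adjusted p = 0.046) and for Nab2 without the first (1.45, 0.027). Among the 35 other immediate-early genes 1 was called over both pairs, Plk2, at least 2.55-fold higher in PtC+. Markers of other cells were also compared between the classes. Over both pairs 0 of 5 T cell markers had a difference above 0 (median -1.22) and none was called, with sums of 447.3 on the young PtC+ array against 2055 on the PtC- array and of 1664 against 1135 in wild type. Erythroid sums were 401.5 against 2482 in the young pair and 79.43 against 223.4 in wild type, with Hbb-b1 called (-1.95 ± 0.29, limma adjusted p = 0.028). Mast cell sums were 1446 against 1669 and 1786 against 2704, with none called. Of 3 NK cell markers only Nkg7 was called, at least 2.26-fold lower. NK cell sums were 244.1 against 746.2 in the young pair and 265.9 against 226.9 in wild type. For macrophage markers 11 of 15 differences were above 0 (median 0.57) and none was called. Macrophage sums were 20130 against 20210 in the young pair and 20570 against 27090 in wild type. The part of these cells in the Egr values was not tested.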

How the data were processed

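RNA of 12 mouse samples was hybridised to Illumina arrays. Per the labels' protocols it was extracted with Trizol, cleaned on RNeasy columns with DNase treatment and made into biotinylated cRNA with the Ambion MessageAmp kit. The labels name no sort gate, chip, scan date or export software. The deposited table held an average bead signal intensity and, per the file headers, a detection p-value for 45281 probes. A further table deposited by the authors, with linear intensity values that share 1 minimum and 1 maximum on all arrays as after quantile normalization, served as an alternative.

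From the first table limma 3.58.1 in R 4.3.3 (neqc, offset 16) gave background-corrected, quantile-normalized log2 values. Probes detected (p under 0.05) on at least 2 arrays were kept (18100), and the brightest kept probe stood for its symbol (13190 genes). A model with 1 mean for each of 8 groups (4 residual degrees of freedom, prior SD 0.244 on 3.13 prior degrees of freedom) was fitted to all 12 arrays, with Benjamini-Hochberg adjustment over all genes within a comparison and a threshold of 0.05. All member genes and probes are named, with the 5 genes most correlated with Egr1 and at most 4 called genes of largest difference from each list in each comparison. Where Dusp1, Dusp2, Dusp6, Plk2, Plk3, Fosl2, Ier3, Trib1, Myc, Mcl1, Nfkbia and Tnf are named beyond this, they were chosen after their values were seen. An at least fold sets each undetected value at the lowest detected value of its array. Some genes of the lists are not reported here by name. The comparisons of PtC class in wild type and young TCL1 cells were added after the values were seen, and the members and lists were chosen with earlier results of these data known. P-values measure the spread between arrays, which may be technical, and the small number of arrays limits precision. The fit was tested on simulated data. Those data had the same spread in all 8 groups, so they cannot test whether lone arrays vary like the paired ones. Alternatives were another background correction, the authors' table, other filters, an intensity trend, another offset, the mean of probes, a replicate block and leaving out each TCL1-192 array.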

Additional observations from a re-analysis of the deposited data

How the results depend on the processing

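The 12 calls of member genes were recomputed under 16 alternatives, which gave 192 values. None changed direction, 165 stayed past the threshold and 27 did not. Those 27 belong to Nab2 in 3 comparisons and to Egr3 against young TCL1, and every call of Egr1 and Egr2, and those of Egr3 against peritoneum and wild type, stayed past the threshold under all 16. For Nab2 against wild type the adjusted p was 0.19 after normexp with median centring (-0.42), 0.1 in the authors' table (-0.32), 0.077 with no filter, 0.085 with an intensity trend and 0.068 with offset 50. Nab2 against young TCL1 gave 0.1 after normexp and 0.051 in the authors' table, and Egr3 against young TCL1 gave 0.074 with no filter. The cause was not tested.

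Replicate numbers are shared between TCL1-192 groups, and nothing in the labels says what a number marks. Over all genes tested, same-numbered arrays deviated together weakly (correlations of 0.0543 to 0.26 over 6 pairs of groups). In spleen Egr3 followed the number, at 9.33 and 9.31 on arrays numbered 1 and 10.39 and 10.14 on those numbered 2. Egr2 and Nab2 did so too, while Egr1 did not. The PtC+ and PtC- arrays of a number may therefore not be independent for these genes. With the replicate block, Nab2 against wild type read -0.72 with an adjusted p of 0.053 and no other member call changed, and the genes called between tissues went from 3516 to 3884.

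Leaving out 1 array at a time gave 1817 to 5953 genes for spleen against peritoneum, 0 to 1533 for PtC class in TCL1-192 cells, 0 to 1644 for its difference between tissues, 2521 to 6048 against wild type, 59 to 504 for young TCL1 against wild type, 1640 to 5328 against young TCL1, 93 to 275 for PtC class in wild type and young TCL1 and 44 to 2250 for its difference from TCL1-192. In all of these the highest count came without the first PtC- peritoneal array, with the same count without the second for young TCL1 against wild type and for PtC class in wild type and young TCL1. Without the first, the array of raised background stands alone in its group. The lowest count for spleen came without the second spleen PtC- array. Members called were 3 to 4, 0 to 0, 0 to 0, 3 to 4, 0 to 0, 2 to 4, 0 to 1 and 0 to 1 in that order. Differences that were not called changed sign: for PtC class in TCL1-192 Egr1 ran from -0.09 to 0.35, Egr2 from -0.17 to 0.12 and Egr3 from -0.30 to 0.82. Between tissues the PtC difference ran from -0.30 to 0.59, -0.26 to 0.32 and -1.36 to 0.87 for them, and was 0.06 for Egr3 with the mean of probes. Against TCL1-192 it ran from -0.19 to 0.40 for Egr2 and from -0.03 to 2.20 for Egr3.

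Genes called between young TCL1 and wild type numbered 201, and 381 in the authors' table, 83 when detected on at least 6 arrays and 355 with a trend. For PtC class in wild type and young TCL1 148 became 4 with at least 6 arrays, and members called went from 0 to 1 after normexp, in the authors' table and with a trend. For its difference from TCL1-192, 91 became 378 in the authors' table, 1 with at least 6 arrays, 460 with a trend and 181 with offset 50. Median centring after normexp moved the median of all genes to 0.14 between tissues, to -0.12 for the difference of PtC contrasts between them, to -0.12 against wild type and to -0.13 against young TCL1. The split of higher to lower calls was then 3060 to 537 in place of 2051 to 1465 for spleen, 734 to 2652 in place of 1561 to 2052 against wild type and 498 to 2180 in place of 1047 to 1547 against young TCL1. The list of other immediate-early genes kept its direction there, with 26 higher and 0 lower in spleen, 3 and 19 against wild type and 2 and 16 against young TCL1. Signals under the detection limit bound Nr4a1, Nr4a2 and Nr4a3 on every array, and Egr2 and Nab2 in TCL1-192 peritoneum.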
